A study of Drosophila melanogaster with 4 samples.

Results

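The Cullin-3 ubiquitin ligase of *Drosophila* spermatids was described here through 5 genes, *Cul3*, *klhl10*, *soti*, *Roc1b* and *Roc1a*. They were chosen by name, and every probe set that the array annotation gives to exactly 1 of them was taken, which left 6 probe sets for 5 of the 11983 genes with a probe set of their own. *Cul3* has 2 probe sets and each of the other 4 genes has 1. Transcription was measured on GeneChip *Drosophila* Genome 2.0 arrays, where each transcript is read by a group of short oligonucleotide probes (a probe set), in testes of males aged 0 to 2 days with the seminal vesicles removed. There were 2 arrays of *nsr* mutant testes, named here *nsr* mutant 1 and 2, and 2 of WT testes, named WT 1 and 2. The mutants (labelled *CG3875* knockout) carry a null allele of *nsr*, made by ends-in gene targeting and lacking the transcribed region from near its start into the 3′ UTR. The WT flies are the recombinant line that kept the gene in the same targeting scheme, so that both lines share their history of heat shock and recombination. Each line is 1 recombination product, and the number of testes per extraction (not given in the sources used here) is unknown. The 2 arrays of a genotype come from independent RNA extractions, and nothing says whether the flies were reared apart, so that the p-values rest on the spread between these samples alone, which may be technical.

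A cullin ubiquitin ligase is a scaffold that holds a RING protein at its one end, where the ubiquitin-loaded E2 enzyme docks, and a substrate adaptor at its other end. Cul3 takes adaptors with a BTB domain. In *Drosophila* spermatids a form of Cul3 made in the testis works with the adaptor Klhl10 and the RING protein Roc1b, and is needed for the non-apoptotic activation of caspases during individualization, the step at which spermatids shed their cytoplasm and gain a membrane each. Soti (Scotti) binds Klhl10 in place of a substrate and holds the ligase back. Roc1a is the RING protein of cullin ligases in most other cells.

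The *nsr* transcript was measured first, as a check of the labels. Mutant testes had intensities of 23.2 and 27.6, against 549 and 554 in WT testes, a log2 fold change of -3.78 (adjusted p = 0.00837 from limma), as the labels say. Mutant arrays had median intensities of 12.1 and 14.1, against 13.5 and 15.7 for WT arrays, and the highest of 50 negative control probe sets lay between 5.70 and 8.57. Over 10038 probe sets above the negative controls on all 4 arrays the median log2 fold change was -0.08, so that most small differences run towards lower values in the mutant. Spermatid and spermatocyte markers were bright, such as *Mst87F*, which encodes a sperm tail protein, at means of 2869 in mutant and 3122 in WT testes. All 21 spermatid and all 15 spermatocyte and meiosis genes with a probe set exceeded the negative controls on all 4 arrays. So did 6 of 9 early germline genes and 4 of 8 somatic testis genes. The germline marker *vas* and the cyst cell marker *tj* exceeded them on no array. The *vas* probe set was matched by its symbol in the array annotation, because no probe set carried the gene ID of *vas* in the gene table. Whether this set reads *vas* was not tested.

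*Cul3*, the scaffold, was lower in mutant testes. Its brighter probe set (1624970_s_at) had intensities of 699.5 and 810 on *nsr* mutant 1 and 2 and 950.0 and 1128 on WT 1 and 2. Each mutant array was thus lower than either WT array. Mutant testes averaged 755 ± 78.4 and WT testes 1039 ± 126 (SD, n = 2 each), a ratio of 0.726. The log2 fold change, taken like all others below on intensity + 16, was -0.45 (standard error 0.14, 95% interval -0.81 to -0.10) and did not pass the test over all probe sets (adjusted p = 0.690 from limma). The gap of 0.23 between the nearest mutant and WT arrays on the log2 scale was about as large as the span of 0.21 between the mutant arrays and of 0.24 between the WT arrays.

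The other probe set of *Cul3* (1632211_at) was dim. It had 5.51 and 10.2 in the mutant and 15.7 and 13.5 in WT, and *nsr* mutant 1 did not exceed the highest negative control of its array. Again each mutant array was lower than either WT array, with a log2 fold change of -0.37 (standard error 0.13, adjusted p = 0.690 from limma). The pseudocount sets the size of this value, which was -0.87 with a pseudocount of 1 and -0.13 with 64. The sources used here do not say which transcripts of *Cul3* either probe set detects, so that no value can be assigned to the testis form. In the array's naming the ending _s_at marks a set whose probes match more than 1 transcript, as for the brighter *Cul3* set and *klhl10*.

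*klhl10* (1636590_s_at), the adaptor, was lower by a similar amount. Its intensities were 64.9 and 92.4 in the mutant and 103 and 118 in WT. The groups did not overlap, but *nsr* mutant 2 lay closer to WT 1 than to *nsr* mutant 1. Mutant testes averaged 78.6 ± 19.4 and WT testes 110.5 ± 10.6 (SD, n = 2 each), a ratio of 0.711. The log2 fold change of -0.43 had the widest error of the 6 probe sets (standard error 0.17, 95% interval -0.88 to 0.02) and did not pass (adjusted p = 0.705 from limma). Without *nsr* mutant 1 it was -0.22 and without *nsr* mutant 2 it was -0.64, so that its size rests on which mutant array is read.

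*soti* (1623783_at), the inhibitor, was the member that lay higher in mutant testes on both arrays. It had 174 and 143 in the mutant and 114 and 119 in WT. Both mutant arrays exceeded both WT arrays, by 0.23 on the log2 scale at the nearest pair, while the WT arrays differed by 0.06 and the mutant arrays by 0.25. Mutant testes averaged 159 ± 21.7 and WT testes 117 ± 3.98 (SD, n = 2 each), a ratio of 1.36. The log2 fold change was 0.39 (standard error 0.12, 95% interval 0.07 to 0.71) which also failed the test over all probe sets (limma, adjusted p = 0.690). Of the probe sets above the negative controls on all 4 arrays, 0.717% had a higher log2 fold change than *soti*, whereas 3.68% had a lower one than the brighter *Cul3* set and 4.35% a lower one than *klhl10*.

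**Figure D1:**
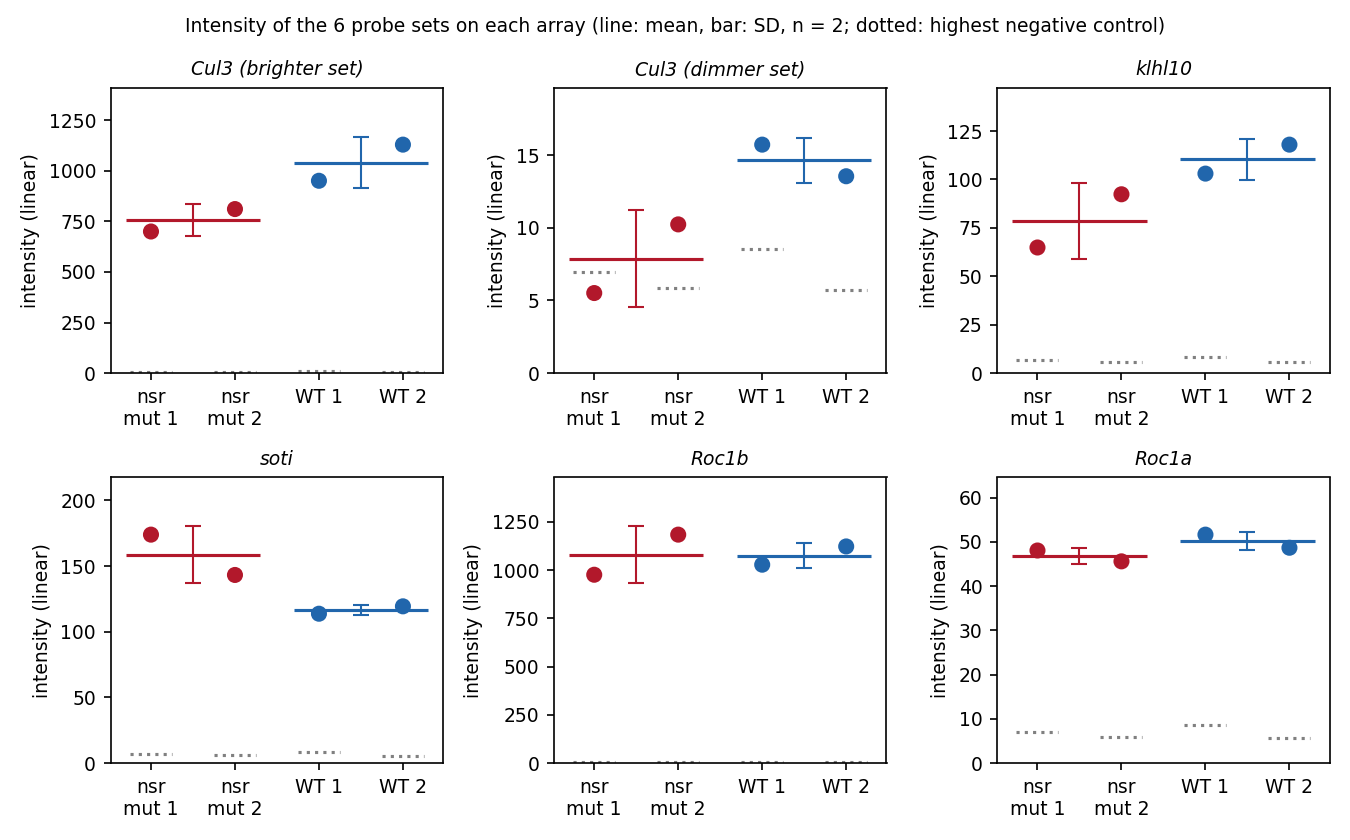
Linear intensity of each of the 6 probe sets on *nsr* mutant 1 and 2 (red) and WT 1 and 2 (blue), with the mean of each genotype as a line, its SD as a bar (n = 2) and the highest negative control of each array dotted. Both *Cul3* sets and *klhl10* lie lower and *soti* lies higher on both mutant arrays, *Roc1b* overlaps between the genotypes, and the arrays of *Roc1a* nearly touch at 48.1 and 48.7.

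The RING partners differed little. *Roc1b* (1639817_at), the partner in the testis, had 976 and 1184 in the mutant and 1028 and 1123 in WT, and the mutant arrays lay on either side of the WT arrays. Its log2 fold change was 0.00, with a standard error of 0.13 and an adjusted p of 0.9997 in limma. The 95% interval of -0.34 to 0.34 covers ratios from 0.788 to 1.27, so that changes of the size measured for *Cul3*, *klhl10* and *soti* lie just outside it and smaller ones lie within it. *Roc1a* (1624478_at) had 48.1 and 45.6 in the mutant and 51.6 and 48.7 in WT. The mutant arrays were below the WT arrays by 0.01 on the log2 scale at the nearest pair, a gap smaller than the 0.06 between the arrays of either genotype. Its log2 fold change was -0.07 (95% interval -0.32 to 0.17, adjusted p = 0.912 from limma), close to the median of all probe sets above the negative controls.

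Over the members, 0 of 6 probe sets passed the test in limma, where 0.00533% of all 18769 probe sets did, a share that is *nsr* alone. A rebuilt form of SAM, which the study's methods name, also called 0 of 6, against 0.0586% of all. At an unadjusted p under 0.05 there were 3 of 6, both *Cul3* sets and *soti*, against 7.13% of all probe sets. Both *Cul3* sets read the same RNA samples. At 1 probe set per gene there were 2 of 5 with such a p, *Cul3* and *soti*, against 8.2% of all genes. The genotypes did not overlap in 5 of the 6 sets, with the mutant lower in 4 and higher in 1. Per gene, the mutant was lower without overlap in 3 of 5 and higher in 1. The mutant was lower without overlap in 24.9% of all probe sets and in 28.0% of those above the negative controls on all 4 arrays, and higher without overlap in 10.2% and 7.82%. The direction of *Cul3*, *klhl10* and *Roc1a* was therefore the commoner one on these arrays and that of *soti* the rarer one.

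**Figure D2:**
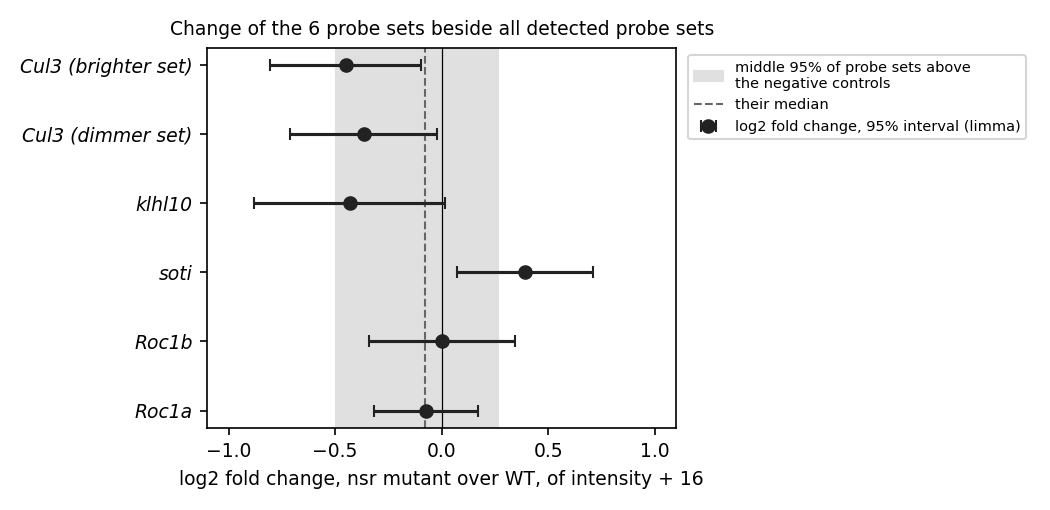
Log2 fold change, *nsr* mutant over WT, of the 6 probe sets with 95% intervals from limma, beside the middle 95% of 10038 probe sets above the negative controls (grey, -0.49 to 0.26) and their median (dashed, -0.08). *soti* lies outside the grey band, and both *Cul3* sets and *klhl10* lie within its lower part.

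Members were also set against each other within each array, as differences of log2(intensity + 16). A scale factor of an array nearly cancels in such a difference for bright probe sets, and less so for dim ones such as *klhl10* and *Roc1a*, because of the added 16. The log2 value of *Cul3* minus that of *soti* was 1.91 and 2.38 in mutant testes, against 2.90 and 3.08 in WT testes, a difference of -0.84 between the genotypes. For *klhl10* minus *soti* it was -1.23 and -0.56 in mutant testes, against -0.12 and -0.02 in WT testes, a difference of -0.82. In both pairs the genotypes did not overlap. This follows from *soti* being higher and the other gene lower on both mutant arrays, so that it adds nothing to the single values. The genotypes did not overlap in 8 of the 10 pairs of the 5 genes. These pairs share genes and arrays, and no share over pairs of other genes was computed to set beside this count. For both pairs with *soti* an exact permutation test (two-sided) gave p = 0.333, the smallest that 2 against 2 arrays allow (0.417 adjusted over the 10 pairs). *Cul3* minus *klhl10* was 3.15 and 2.93 in the mutant and 3.02 and 3.09 in WT, a difference of -0.02 with overlapping groups (exact p = 1). *Cul3* minus *Roc1b* was -0.47 and -0.54 in the mutant and -0.11 and 0.01 in WT, a difference of -0.45 (exact p = 0.333), and *Roc1b* minus *Roc1a* differed by 0.08 with overlapping groups (exact p = 0.667). These values compare arrays and give no level of one gene against another. In bulk testes fewer cells of a type and less RNA per cell cannot be told apart.

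The members were also read under other scalings of the arrays. With array medians centred, with quantile normalization and with cyclic loess, both *Cul3* sets and *klhl10* stayed below WT on both mutant arrays and *soti* stayed above. Under quantile normalization the log2 fold changes were -0.35 for the brighter *Cul3* set, -0.33 for *klhl10* and 0.49 for *soti*. *Roc1b* was then higher on both mutant arrays, at 0.12, and also with loess, at 0.09. *Roc1a* turned to 0.033 with quantile normalization and to 0.018 with loess, and its groups overlapped. No setting called any of the 6 sets. Of the probe sets tested, 0.591% were called with array medians centred, 0.016% with quantile normalization, 0.0107% with loess, 0.0107% with the replicate number as a block, and 1.28% of those left by the filter on level.

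**Figure D3:**
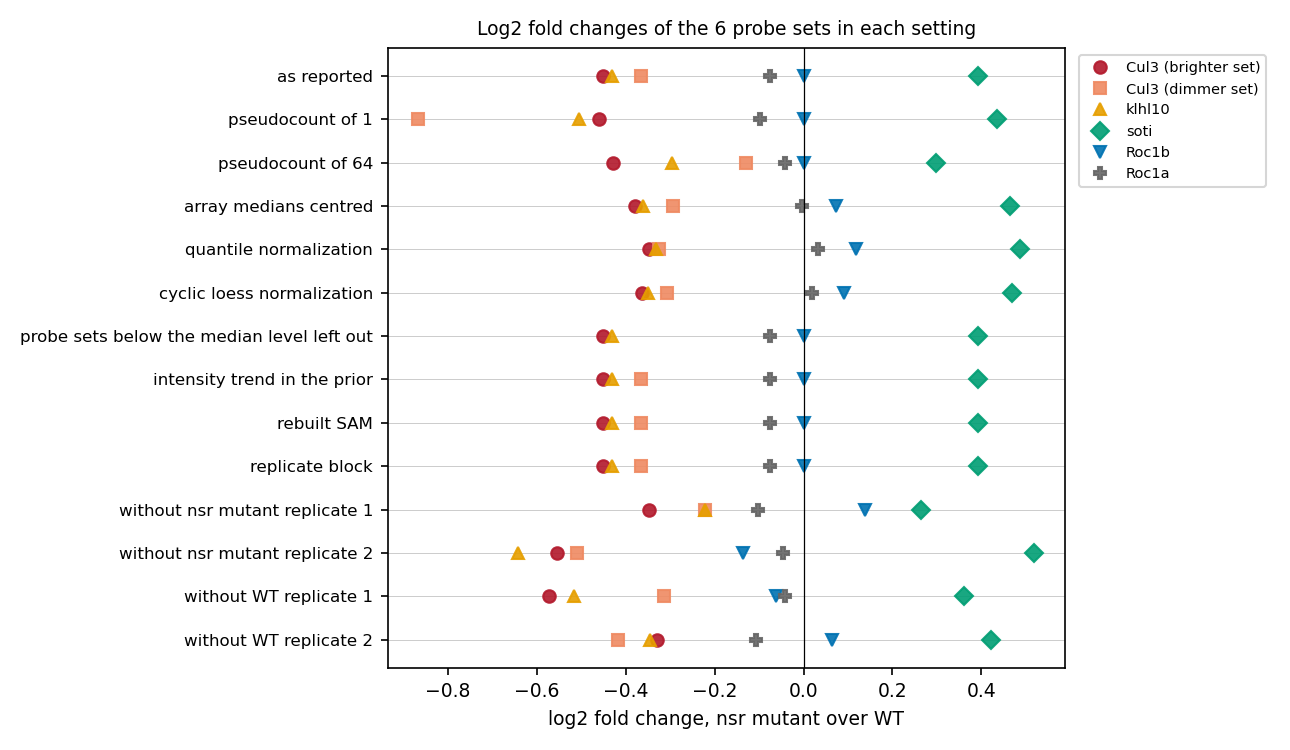
Log2 fold change, *nsr* mutant over WT, of the 6 probe sets (symbols) as reported here and in the 13 other settings (rows). *Cul3* and *klhl10* stay below 0 and *soti* stays above 0 in each setting in which they were tested, while *Roc1b* and *Roc1a* lie close to 0 and cross it.

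By the distance between their values on the 4 arrays, each centred on its own mean, the genes nearest to *Cul3* among 7709 were *bnb* and *alpha-Est3*, at root mean square distances of 0.009 and 0.014 on the log2 scale. The nearest to *klhl10* were *Paip2*, which regulates poly(A)-binding protein, and *CG1137*, at 0.005 and 0.007. Within a distance of 0.05 there were 71 genes for *Cul3*, 73 for *klhl10*, 182 for *Roc1a* and 505 for *Roc1b*, but 2 for *soti*. These were *CG31495* and *MED28*, a Mediator subunit, at 0.033 and 0.041. *MED28* had 239 and 196 in the mutant and 147 and 156 in WT, with *nsr* mutant 1 the highest array as for *soti*. The nearest to *Roc1b* were *CG12929* and *Edc3* and to *Roc1a* *CG14787* and *UQCR-Q*. Over 4 arrays such a likeness is a description, and all the probe sets share the brightness of their arrays.

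Around the ligase, none of the genes of 6 lists passed the test in limma. Over all genes at 1 probe set each, 8.2% had an unadjusted p under 0.05. Among the other cullins and the RING protein *Roc2*, 0 of 6 were called and 0 had such a p, with a median log2 fold change of -0.12. The median was -0.003 without *nsr* mutant 1, -0.23 without *nsr* mutant 2, -0.20 without WT 1 and -0.019 with quantile normalization. *Cul4*, the scaffold of ligases that act on chromatin and replication, had 81.9 and 103 in the mutant and 105 and 128 in WT (log2 fold change -0.29). *Cul2* and *Cul1* had -0.27 and -0.13, and the arrays of *Cul2* overlapped. The difference between *Cul3* and these cullins was not tested.

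Cullins are switched on by attachment of the small protein Nedd8 and switched off by the COP9 signalosome, which removes it. Of 17 genes of this cycle with a probe set, 0 were called and 0 had an unadjusted p under 0.05. Of all genes at 1 probe set each, 8.2% had such a p. The median of the 17 was -0.04. It turned to 0.041 without *nsr* mutant 1, to 0.069 without WT 2 and to 0.047 with quantile normalization, and was -0.13 without WT 1. The genotypes were apart in 2 of the 17, *SCCRO3* and *Cand1*, both lower in the mutant, where 28.0% of probe sets above the negative controls on all 4 arrays were. *SCCRO3*, of a family that helps to attach Nedd8, had 217 and 322 in the mutant and 327 and 412 in WT (log2 fold change -0.45), with the mutant arrays further apart than *nsr* mutant 2 was from WT 1. *Cand1*, which exchanges adaptors of cullins, had -0.16 and *SCCRO4* -0.20. The catalytic subunit *CSN5* had 441 and 456 in the mutant and 367 and 449 in WT (0.14).

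Of 7 other BTB proteins that can act as adaptors of Cul3, 0 were called and 2 had an unadjusted p under 0.05, as did 8.2% of all genes at 1 probe set each. All 7 had a log2 fold change below 0, as did 68.1% of the probe sets above the negative controls on all 4 arrays, and 4 of the 7 were lower in the mutant without overlap, as were 28.0% of those probe sets. The median of the 7 was -0.20, and it was -0.071 without *nsr* mutant 1, -0.093 with quantile normalization, -0.089 with a pseudocount of 64 and -0.11 with the filter on level. *rdx*, the adaptor that turns over the Hedgehog factor Ci, was dim, with 14.0 and 20.3 in the mutant and 24.9 and 36.9 in WT (log2 fold change -0.49, limma, adjusted p = 0.690). *inc*, known as a Cul3 adaptor in sleep, had 32.4 and 38.3 in the mutant and 45.8 and 46.5 in WT (-0.28, adjusted p = 0.698 from limma). *KLHL18* had -0.20. *kel* and *dbo*, whose proteins carry kelch repeats as Klhl10 does, had -0.02 and -0.01 and overlapped.

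**Figure D4:**
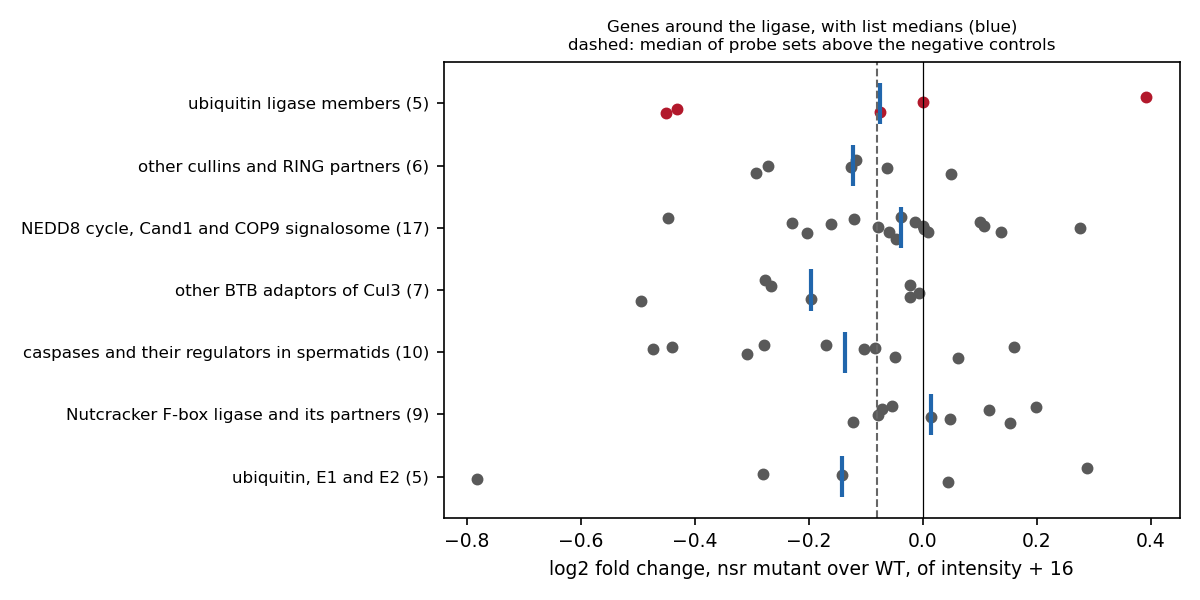
Log2 fold change, *nsr* mutant over WT, of the 5 members (red) and of the genes of 6 lists around the ligase (grey), with list medians in blue, the number of genes in brackets and the median of the probe sets above the negative controls dashed. List medians run from -0.20 for the other BTB adaptors to 0.01 for the Nutcracker ligase.

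The ligase acts on caspases in spermatids. Of 14 caspase genes and regulators listed, 10 had a probe set of their own, while *Drice*, *hid*, *cyt-c-d* and *Diap1* had none. Of the 10, 0 were called and 2 had an unadjusted p under 0.05, as did 8.2% of all genes at 1 probe set each. The mutant was lower without overlap in 3 and higher in 1. Over probe sets above the negative controls on all 4 arrays the shares were 28.0% and 7.82%. The median of the 10 was -0.14. Without 1 array the median lay between -0.29 (without *nsr* mutant 2) and -0.060 (without *nsr* mutant 1), with -0.070 without WT 2 and -0.22 without WT 1, and it was -0.030 with quantile normalization. *ScsbetaA* encodes the succinyl-CoA synthetase subunit that, in *Drosophila* spermatids, brings the Cul3 complex to the mitochondria. It had 1697 and 1835 in the mutant and 2353 and 2565 in WT, and its log2 fold change of -0.47 (standard error 0.10, adjusted p = 0.690 from limma) was close to that of *Cul3*. The gap between the genotypes was clear of the spread between arrays of each genotype. The effector caspase gene *Dcp-1* had 20.9 and 19.5 in the mutant and 32.7 and 33.5 in WT (log2 fold change -0.44, standard error 0.09, adjusted p = 0.690 from limma), and both genotypes were again well apart. *Duba*, a deubiquitinase that acts in individualization, had 576 and 688 in the mutant and 728 and 809 in WT (-0.28). *Bruce*, the giant inhibitor of apoptosis protein that the ligase ubiquitinates, had 50.6 and 72.8 in the mutant and 72.4 and 68.7 in WT, and its groups overlapped (-0.17). The initiator caspase gene *Dronc* had -0.10. *Dredd*, the gene higher in the mutant without overlap, had 85.4 and 95.3 in the mutant and 75.1 and 83.2 in WT (0.16). *Fadd* had 0.06 with overlapping groups.

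A separate ligase of spermatids, built on Cul1 with the F-box protein Nutcracker, works with the proteasome regulator PI31. Of 9 genes for this ligase, its Skp partners and other F-box proteins, 0 were called and 0 had an unadjusted p under 0.05. Of all genes at 1 probe set each, 8.2% had such a p. The median of the 9 was 0.01. It turned to -0.17 without *nsr* mutant 2 and to -0.16 without WT 1. *ntc* itself had 1335 and 1568 in the mutant and 1427 and 1622 in WT (-0.07), *PI31* had -0.12, and *SkpD* and *SkpB*, paralogs of the adaptor that links an F-box protein to Cul1, had 0.20 and 0.15. All 9 had overlapping groups. Of the probe sets above the negative controls on all 4 arrays, 28.0% were lower and 7.82% higher in the mutant without overlap.

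Among ubiquitin, E1 and E2 genes 5 of 9 had a probe set of their own, while *Uba1*, *eff*, *Ubc4* and *Ubc10* had none. Of the 5, 0 were called and 1 had an unadjusted p under 0.05, as did 8.2% of all genes at 1 probe set each. Their median was -0.14. The median turned to 0.083 without *nsr* mutant 1 and to 0.022 without WT 2, and was -0.37 without *nsr* mutant 2 and -0.30 without WT 1. *ben*, an E2 of DNA repair and signalling, had 80.3 and 130.1 in the mutant and 178 and 198 in WT, a log2 fold change of -0.78 (standard error 0.22, adjusted p = 0.690 from limma). This E2 passed with array medians centred (adjusted p = 0.0154 from limma, where 0.591% of all probe sets were called) and without the dimmer probe sets (adjusted p = 0.00392, where 1.28% were). Over the other alternatives its adjusted p lay between 0.327 and 0.988, and without *nsr* mutant 1 its log2 fold change was -0.48. The fits in which *ben* passed draw the variances of probe sets closer together. The prior degrees of freedom of limma were 24.4 with array medians centred and not finite without the dimmer probe sets. They were 2.79 in the fit reported here. A prior that is not finite gives every probe set the same variance. The part of this in the calls was not tested. *vih*, an E2 of the anaphase-promoting complex, had -0.28, and the polyubiquitin gene *Ubi-p5E* had 0.29 with overlapping groups.

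*Cul3*, *klhl10* and *soti* were set beside markers of cells the dissected testes could hold. The summed intensity of 21 spermatid genes was 46668 and 50578 in mutant testes, against 50465 and 54012 in WT testes, with a median log2 fold change of -0.10, 10 of the 21 lower in the mutant without overlap and 0 higher, against 28.0% and 7.82% of all probe sets above the negative controls on all 4 arrays. Very bright genes carry this sum, and some of its genes differed by nearly as much as *Cul3* and *klhl10*. These were *djl* (-0.41), *schuy* (-0.40), *dj* (-0.37, with overlapping groups) and *hale* (-0.32), of which *schuy* and *hale* had an unadjusted p under 0.05 and none passed the test (limma, adjusted p of 0.690 to 0.794). The comparable sums of 15 spermatocyte and meiosis genes were 7103 and 8052 in the mutant and 7150 and 8544 in WT (median 0.02). Those of 8 somatic testis genes were 265 and 229 in the mutant and 314 and 318 in WT, with *tj*, *upd1* and *Egfr* at background on all 4 arrays. All 8 had a log2 fold change below 0 (median -0.16), as did 68.1% of probe sets above the negative controls on all 4 arrays. Of these 8, 3 were lower in the mutant without overlap and 0 higher, against 24.9% and 10.2% of all probe sets. Among the somatic genes *so* had 50.4 and 57.4 in the mutant and 81.7 and 93.4 in WT (log2 fold change -0.57, limma, adjusted p = 0.690). The sums of 7 muscle genes, mostly *Mlc1*, were 723 and 910 in the mutant and 671 and 718 in WT. Their median log2 fold change was 0.08, with 5 above 0 and 2 below. Without overlap 1 was higher, *Act88F*, and 1 was lower, *TpnC73F* (-0.19). The shares over probe sets above the negative controls on all 4 arrays were 7.82% and 28.0%. The muscle actin gene *Act88F* had 77.6 and 56.1 in the mutant and 36.2 and 26.8 in WT, a ratio of 2.12 (log2 fold change 0.80, limma, adjusted p = 0.690), and 0.0299% of the probe sets above the negative controls had a higher log2 fold change. The sums of 10 accessory gland genes were 466 and 602 in the mutant and 468 and 507 in WT. *Acp95EF* made up most of them, at 350 and 424 in the mutant and 345 and 378 in WT. Only 4 of the 10 exceeded the negative controls on all 4 arrays. Their median log2 fold change was 0.14, with 8 above 0 and 2 below. Without overlap 2 were higher and 2 lower, against 10.2% and 24.9% of all probe sets. *Acp98AB* was dim, with 12.9 and 21.5 in the mutant and 8.80 and 7.41 in WT (0.45). For 9 early germline genes the sums were 304 and 349 in the mutant and 330 and 415 in WT, and for 8 fat body and blood cell genes 780 and 1001 in the mutant and 790 and 1047 in WT. All 9 early germline genes had a log2 fold change below 0 (median -0.08). Of these 9, 3 were lower without overlap and 0 higher, against 24.9% and 10.2% of all probe sets. Of the fat body and blood cell genes, 5 had a log2 fold change above 0 and 3 below. In signs of RNA quality, the ratio of 5′ to 3′ signal of *Act5C* was 0.229 and 0.227 in the mutant and 0.297 and 0.264 in WT. That of the other actin control was 0.745 and 0.687 in the mutant and 0.823 and 0.783 in WT. Both actin ratios were lower on each mutant array, while those of the GAPDH controls and eIF-4a overlapped. The part of these values in the differences of *Cul3*, *klhl10* and *soti* was not tested.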

How the data were processed

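Testis RNA of 2 *nsr* mutant and 2 WT samples was hybridised by the authors to 1-colour arrays, 1 sample each. The authors deposited, for each probe set on each array, a linear intensity. The software for probe summarisation and scaling was not given in the sources used here, so that intensities were taken as they stand. The labels name a MessageAmp II-Biotin kit and the paper GeneChip One-Cycle labelling. Affymetrix controls (183 probe sets) were left out and 18769 were tested. The annotation gives 1 gene to 13647 of these, several to 402 and none to 4720. Symbols were updated through a RefSeq gene table of release 6, which held the ID of 13544. List genes with more than 1 probe set were read from the brightest. The 50 negative controls are Affymetrix sets named by plant protein accessions.

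Mutant and WT were tested in limma 3.58.1 (lmFit, eBayes; R 4.3.3) on log2(intensity + 16), two-sided, without covariates, with Benjamini-Hochberg adjustment over all probe sets and a threshold of 0.05. The pseudocount understates changes of dim genes. SAM, which the methods name, was rebuilt with a q of at most 0.01. Python 3.11.15, numpy 2.4.6, pandas 2.3.3, scipy 1.17.1 and matplotlib 3.10.9 were used. Both tests were tested on simulated data. The number of arrays limits the precision.

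Named were all probe sets of the members, the 2 nearest genes of each member, and *nsr*. In each of the 6 lists around the ligase, 3 genes or fewer were named. These had the lowest p among those exceeding the negative controls throughout. *CSN5*, *kel*, *dbo*, *Bruce*, *Dronc*, *Dredd*, *Fadd*, *ntc*, *Mst87F*, *vas*, *tj*, *upd1*, *Egfr*, *djl*, *schuy*, *dj*, *hale*, *so*, *Mlc1*, *Act88F*, *TpnC73F*, *Acp95EF* and *Acp98AB* fall outside this rule, their values having been seen when they were chosen. The members and lists were chosen with earlier results of these data known. Alternatives were pseudocounts of 1 and 64, centring, quantile and cyclic loess normalization, a filter on level, an intensity trend in the prior, SAM, the replicate number as a block, each array left out, and all probe sets of a gene.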

Additional observations from a re-analysis of the deposited data

How the results depend on the processing

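The log2 fold changes of both *Cul3* sets, *klhl10* and *soti* kept their direction and stayed short of the threshold in all alternatives in which they were tested (13 each, 12 for the dimmer *Cul3* set, which the filter on level removes). Leaving out 1 array at a time gave -0.57 to -0.33 for the brighter and -0.51 to -0.22 for the dimmer *Cul3* set, -0.64 to -0.22 for *klhl10*, 0.26 to 0.52 for *soti*, -0.14 to 0.14 for *Roc1b* and -0.11 to -0.04 for *Roc1a*. *Roc1b* turned below 0 without *nsr* mutant 2 and without WT 1, and *Roc1a* turned to 0.033 with quantile normalization and 0.018 with cyclic loess. In fits without 1 array the lone array is assumed to vary like the other genotype.

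The number of all probe sets called was 1 in the fit reported here and 0 with a pseudocount of 1. It was 111 with array medians centred, 3 with quantile normalization and 2 with loess. It was 120 without the probe sets below the median level, 11 in the rebuilt SAM and 2 with the replicate number as a block. None of the probe sets called was a member. In the list of ubiquitin genes and E2 enzymes, *ben* made the count 1 with array medians centred and 1 without the dimmer probe sets. The prior degrees of freedom of limma were 24.4 and not finite in these fits, against 2.79 in the fit reported here. Their part in the calls was not tested. Of 72 alternative values of list medians, 17 moved by more than the spread between arrays, 8 of them in the caspase list, 4 in that of the BTB adaptors, 3 in that of the other cullins and 2 in the Nutcracker list. The replicate numbers of the labels do not pair the genotypes, and the deviations of same-numbered arrays correlated at 0.150 over probe sets. With the replicate block the log2 fold changes are the same by construction (-0.45 for *Cul3*), and no member was called. The median log2 fold change over all probe sets was -0.04 in the fit reported here and -0.10 with a pseudocount of 1.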
